A study of Mus musculus with 8 samples.

Results

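A set of 8 genes that handle heme, iron and copper was examined in the lenses of 10-day-old mice, namely Hebp1, Hmox1, Tfrc, Hfe, Fth1, Ftl1, Atp7a and Cp. All probe sets that the Affymetrix MG-U74Av2 chip holds for these genes were taken, which gave 14 of the 12488 probe sets on the chip for these 8 of the 8949 genes that the chip's annotation names, alone or beside others on a probe set. Hebp1, Hfe and Atp7a were chosen by their ratio of C57BL/6J over 129SvJae signals in WT and KO lenses, since the study lists them among its strain differences, and the other 5 genes belong to the same pathways, in a list made with results of these arrays known. Strain differences of all 8 are therefore given as a description, with no p-value, and nothing is read from them. Counts of their probe sets at an adjusted p under 0.05 are listed only to show how they depend on the processing. Of the 14 probe sets, 11 passed the filter on low signals together with 10078 probe sets in all (a group mean above 50 in at least 1 group). The other 3 are control probe sets of Tfrc, which were kept out of the tests and are described with that gene.

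The study asked how lens transcripts differ between a strain in which loss of the gap junction protein α3Cx46 (connexin 46, gene Gja3) gives severe cataract and a strain in which it gives a milder one, and whether the loss itself alters transcript levels. There were 4 groups of 2 arrays: wild type (WT) and α3Cx46 knockout (KO) lenses on the 129SvJae background, and the same pair of genotypes on the C57BL/6J background. Each array held RNA pooled from the whole lenses of many untreated mice of both sexes. The KO mice carried a targeted disruption of Gja3 in every cell, made with a neomycin cassette that has a protamine polyadenylation sequence, and each strain's KO was compared with WT of the same strain. Nothing in the labels says whether the 2 pools of a group came from separate litters, so p-values measure the spread between these pools, which may be technical.

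Iron enters most cells bound to transferrin through the transferrin receptor (Tfrc), a step that the Hfe protein modulates at the cell surface, and iron not in use is stored inside ferritin, a shell of heavy (Fth1) and light (Ftl1) chains. Heme is carried in the cytosol by binding proteins such as Hebp1 and is broken down by heme oxygenase (Hmox1), which releases the iron. Copper is moved into the secretory pathway and out of the cell by the ATPase Atp7a, and ceruloplasmin (Cp) is a copper-containing oxidase that converts ferrous to ferric iron. In the lens these proteins matter because free iron and copper catalyse oxidation in a tissue whose fiber cells keep their proteins for life.

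The 250 bases before the annotated start of Hebp1, Hfe and Atp7a are shown because these are the 3 members chosen for their strain ratio. Sequences are from RefSeq for the C57BL/6J-derived build GRCm38.p6, in which 7 of the 8 genes had a window. Hmox1 was the gene with no window. They are written 5′ to 3′ on the strand of the gene, at chr6:135168216-135168465 (minus strand) for Hebp1, chr13:23710855-23711104 (minus strand) for Hfe and chrX:106026974-106027223 (plus strand) for Atp7a. Capitals mark matches to the motifs named after the sequences.
Hebp1: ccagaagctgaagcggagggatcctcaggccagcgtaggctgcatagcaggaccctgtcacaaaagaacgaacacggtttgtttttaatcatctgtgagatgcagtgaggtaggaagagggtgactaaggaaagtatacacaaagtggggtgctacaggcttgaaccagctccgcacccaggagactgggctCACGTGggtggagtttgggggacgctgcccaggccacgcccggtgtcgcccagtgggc
Hfe: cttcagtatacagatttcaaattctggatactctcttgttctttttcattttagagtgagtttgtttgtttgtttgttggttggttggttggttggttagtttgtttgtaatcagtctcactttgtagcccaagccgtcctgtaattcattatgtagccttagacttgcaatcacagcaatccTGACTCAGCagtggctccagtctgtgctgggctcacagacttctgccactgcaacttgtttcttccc
Atp7a: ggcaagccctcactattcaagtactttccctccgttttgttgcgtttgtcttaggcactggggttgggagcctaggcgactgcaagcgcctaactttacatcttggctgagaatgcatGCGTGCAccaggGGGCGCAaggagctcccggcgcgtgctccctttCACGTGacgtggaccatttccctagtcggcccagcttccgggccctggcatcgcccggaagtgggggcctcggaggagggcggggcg
Both strands of each window were searched for the E-box CACGTG, the antioxidant response element core TGACNNNGC, and the metal response element cores TGCACNC and TGCGCNC, the element that the zinc-sensing factor Mtf1 binds. The E-box lay 58 to 53 bases before the start of Hebp1 and 87 to 82 bases before that of Atp7a, and 6.02% of 32851 windows of this length held one. The antioxidant response element core lay 67 to 59 bases before the start of Hfe, where it overlaps the letters of an AP-1 site, and 10.2% of windows held it. The Atp7a window held both metal response element cores on the minus strand, TGCACNC at 132 to 126 bases and TGCGCNC at 120 to 114 bases before the start, against 10.4% and 12.5% of windows. No marked match overlapped another. Such matches are letters in a reference strain and were not tested for binding. The 129SvJae sequence of these windows was not analysed here.

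Signals are Microarray Suite 5 intensities on a linear scale, rescaled so that the trimmed mean of each array is 250. The Gja3 probe set read 1100 to 3381 on the 4 WT arrays and 445 to 519 on the 4 KO arrays. All 8 probe sets of lens fiber markers were above 50 on every array. Their summed signal was 209100 to 318800 in WT and 166900 to 242200 in KO lenses. That of the 9 red blood cell probe sets was 1208 to 1935 over all arrays, with 5 to 7 of them above 50 on each array. Among these, the β-globin set 101869_s_at read 361 to 746, whereas Alas2, the heme synthesis enzyme of red blood cells, was below 50 on each array. The 129SvJae WT replicate 1 array gave the lowest of the 8 signals for 5 of the 11 member probe sets (both of Atp7a, 1 of Fth1, Ftl1 and Hmox1), where 15.6% of all tested probe sets had their lowest signal. For these 5 probe sets, the ratios that use that array are given without it as well.

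Between the strains, Hebp1 stood much lower and Hfe higher in C57BL/6J lenses, 1 of 2 Atp7a probe sets was higher in C57BL/6J WT lenses, and the ferritin, heme oxygenase, ceruloplasmin and transferrin receptor signals overlapped between the 4 arrays of each strain. The values are listed gene by gene, in the order heme, iron uptake, iron storage and copper, and the same signals serve for the KO comparison.

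Hebp1 encodes a cytosolic protein that binds heme and other tetrapyrroles. Its probe set (103085_at) gave signals of 243 and 271 on the 129SvJae arrays against 49.2 and 33.2 on the C57BL/6J arrays for WT lenses, and 330 and 340 against 41.2 and 40.3 for KO lenses. Every 129SvJae array was far above every C57BL/6J array, and all 4 C57BL/6J signals lay below 50, the level that the study required at least 1 group to exceed. The group means were 257 ± 19.9, 335 ± 7.12, 41.2 ± 11.3 and 40.7 ± 0.638 (SD, n = 2 arrays each). The log2 ratio of C57BL/6J over 129SvJae was -2.67 for WT lenses (SE 0.54) and -3.04 for KO lenses (SE 0.54), which is a 6.35-fold and an 8.24-fold lower signal. Because the lower group sat below 50, the size depends on how low signals are treated, and the ratio averaged over genotypes moved from -2.85 to -2.55 with signals under 50 set to 50. The array measures transcripts in the whole lens, so that fewer cells making a transcript and less transcript per cell cannot be told apart here or for any other gene.

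Hmox1, the inducible heme oxygenase that opens the heme ring and frees its iron, gave signals of 17590 and 26770 on the 129SvJae arrays against 28400 and 25490 on the C57BL/6J arrays for WT lenses, and 25280 and 20830 against 28000 and 23260 for KO lenses (160101_at). The highest was 1.61 times the lowest, and the strains overlapped in both genotypes. The log2 strain ratio was 0.31 for WT lenses (SE 0.23) and 0.15 for KO lenses (SE 0.23). The WT ratio was 0.0074 and 0.61 without 129SvJae WT replicate 1 and 2. The red blood cell markers, whose cells are rich in heme, summed to 1544 to 1935 in 129SvJae and 1208 to 1927 in C57BL/6J arrays, and their part in the Hmox1 or Hebp1 signals was not tested.

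Hfe encodes a membrane protein related to MHC class I that pairs with β2-microglobulin and the transferrin receptor, and its loss causes hereditary iron overload. Signals of its probe set (104014_at) were 296 and 89.0 on the 129SvJae arrays against 555 and 371 on the C57BL/6J arrays for WT lenses, and 205 and 145 against 347 and 478 for KO lenses. The lowest C57BL/6J array was above the highest 129SvJae array, but the pair of 129SvJae WT arrays lay far apart. The log2 strain ratio was 1.48 for WT lenses (SE 0.51) and 1.24 for KO lenses (SE 0.51), a 2.80-fold and a 2.36-fold higher signal in C57BL/6J. The WT ratio was 0.62 without 129SvJae WT replicate 2 and 2.35 without 129SvJae WT replicate 1. Replicate 2 of that group was scanned in a session of its own, and with scan session as a block the WT ratio was 0.72. Such a block gives that array a term of its own, so this value also leaves it out.

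Tfrc, the receptor that takes up transferrin-bound iron, is covered by 2 tested probe sets that target the same transcript and did not behave alike. The brighter one (103958_g_at, a set whose probes are shared within a group of related sequences) read 704 and 779 on the 129SvJae arrays against 714 and 658 on the C57BL/6J arrays for WT lenses, and 591 and 380 against 562 and 766 for KO lenses. The dimmer one (103957_at) read 61.8 and 225 on the 129SvJae arrays against 14.1 and 76.4 on the C57BL/6J arrays for WT lenses, and 78.7 and 94.5 against 87.7 and 111 for KO lenses. Both the lowest and the highest signal of the dimmer set were on WT arrays. For the brighter set the log2 strain ratio was -0.11 for WT lenses (SE 0.29) and 0.47 for KO lenses (SE 0.29), and for the dimmer set -1.85 (SE 0.88) and 0.19 (SE 0.88). The WT ratio of the dimmer set was -2.78 and -0.91 without 129SvJae WT replicate 1 and 2, and -0.63 and -3.07 without C57BL/6J WT replicate 1 and 2. The strains overlapped for both sets in both genotypes. The chip also holds Tfrc control probe sets for the 5′ end, the middle and the 3′ end of the transcript. The 3′ set read 111 to 190 over the 8 arrays, whereas the 5′ set was below 50 on 7 arrays and the middle set on 6.

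The ferritin genes were among the bright signals and differed little. The heavy chain Fth1, which carries the ferroxidase site, read 2588 and 4646 on the 129SvJae arrays against 4422 and 5430 on the C57BL/6J arrays for WT lenses, and 4577 and 4513 against 4681 and 4527 for KO lenses on 94794_at. A second Fth1 set chosen under relaxed design rules (161913_r_at) ranged from 1409 to 3183, and both ends of that range were C57BL/6J WT arrays. The light chain Ftl1, which promotes formation of the iron core, read 8168 and 14520 on the 129SvJae arrays against 9073 and 10790 on the C57BL/6J arrays for WT lenses, and 12470 and 11180 against 9310 and 9974 for KO lenses. Its probe set (99872_s_at) is annotated to Ftl1 and to the pseudogene Ftl1-ps2, so the signal cannot be assigned to Ftl1 alone. The log2 strain ratio in WT lenses was 0.50 (SE 0.25) for Fth1 (94794_at), 0.07 (SE 0.33) for Fth1 (161913_r_at) and -0.14 (SE 0.24) for Ftl1. In KO lenses these ratios were 0.02 (SE 0.25), -0.28 (SE 0.33) and -0.29 (SE 0.24). Without 129SvJae WT replicate 1, the WT ratio was 0.08 for Fth1 (94794_at) and -0.55 for Ftl1. Without 129SvJae WT replicate 2, it was 0.92 for Fth1 (94794_at) and 0.28 for Ftl1, so these ratios depended on which array was kept. The WT ratio of Fth1 (161913_r_at) was -0.52 and 0.66 without C57BL/6J WT replicate 1 and 2.

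Atp7a, the X-linked copper ATPase whose loss in humans causes Menkes disease, is covered by 2 tested probe sets. The first (102854_s_at) read 103 and 154 on the 129SvJae arrays against 303 and 331 on the C57BL/6J arrays for WT lenses, and 317 and 276 against 340 and 394 for KO lenses. The 129SvJae WT arrays were the lowest, and the other 3 groups lay close together. The second (160609_at) read 265 and 334 on the 129SvJae arrays against 314 and 352 on the C57BL/6J arrays for WT lenses, and 465 and 541 against 428 and 598 for KO lenses. On this set the arrays sorted by genotype rather than by strain. The log2 strain ratio of 102854_s_at was 1.33 for WT lenses (SE 0.37) and 0.31 for KO lenses (SE 0.37), and that of 160609_at was 0.16 (SE 0.31) and 0.01 (SE 0.31). The strain difference in WT lenses was therefore seen with 1 of the 2 probe sets. Without 129SvJae WT replicate 1 it was 1.04 for that set and -0.0058 for the other, and without replicate 2 it was 1.62 and 0.33.

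Cp, the ferroxidase ceruloplasmin, read 1882 and 1363 on the 129SvJae arrays against 2623 and 1692 on the C57BL/6J arrays for WT lenses, and 1589 and 1276 against 1789 and 1670 for KO lenses (92851_at). The array of the first scan session (replicate 1) was the higher one in each group. The strains overlapped in WT lenses, and in KO lenses both C57BL/6J arrays were above both 129SvJae arrays. The log2 strain ratio was 0.40 for WT lenses (SE 0.26) and 0.28 for KO lenses (SE 0.26).

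**Figure D1:**
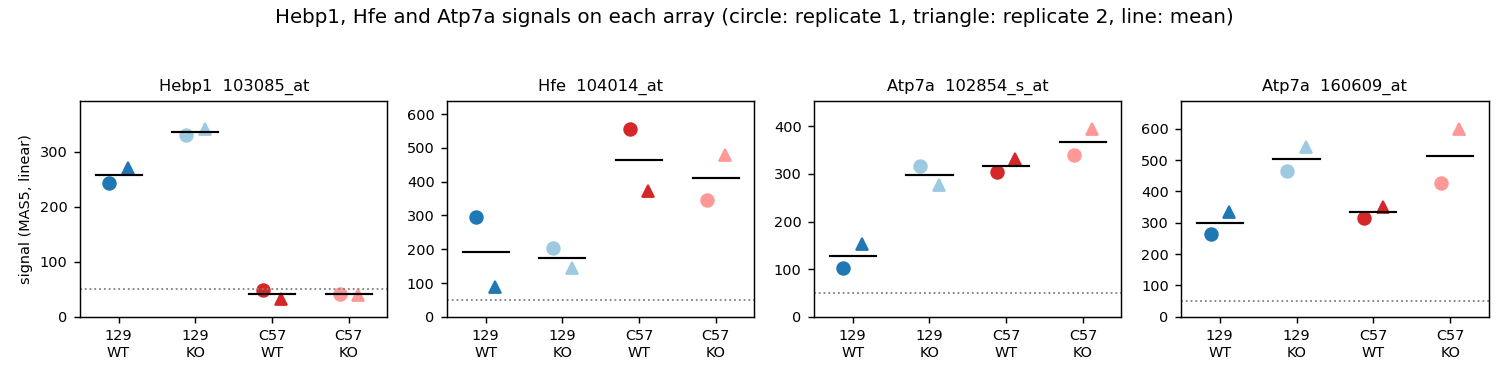
Rescaled linear signals of the Hebp1, Hfe and Atp7a probe sets in each of the 4 groups (x axis, 129 is 129SvJae and C57 is C57BL/6J), with replicate 1 as a circle, replicate 2 as a triangle, the group mean as a line and a dotted line at a signal of 50. All C57BL/6J signals of Hebp1 lie under the dotted line, and on Atp7a 160609_at each KO array lies above each WT array.

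**Figure D2:**
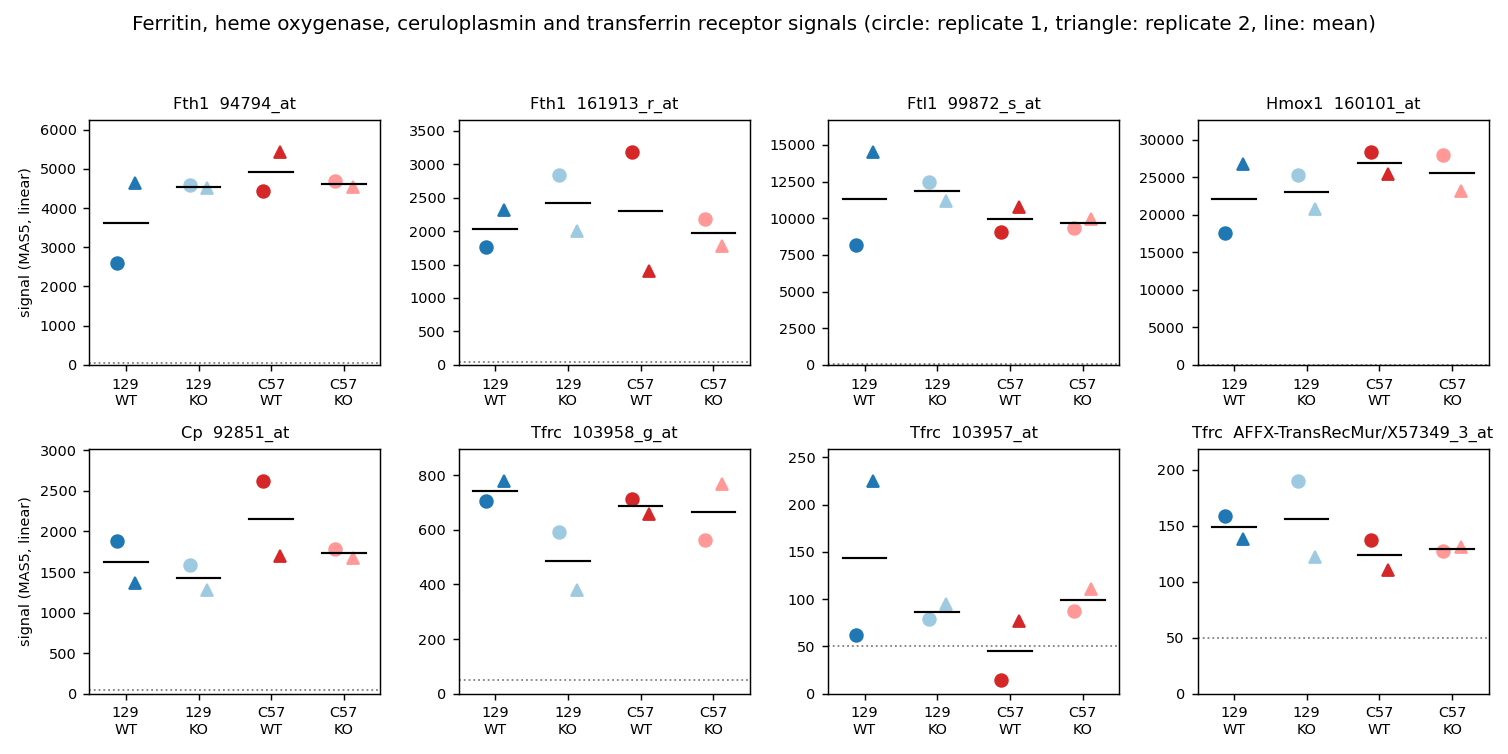
Rescaled linear signals of the ferritin, heme oxygenase, ceruloplasmin and transferrin receptor probe sets in the 4 groups (x axis), with the same symbols and a dotted line at 50; each panel has its own scale from 0. The replicates of 129SvJae WT lie apart for Fth1 94794_at (2588 and 4646) and Ftl1 (8168 and 14520), and the Tfrc sets do not share a pattern.

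As a description, 2 of the 11 member probe sets had no overlap between the 4 arrays of one strain and the 4 of the other (Hebp1 lower and Hfe higher in C57BL/6J), where 5.57% of all tested probe sets had none. In WT lenses 3 of 11 did not overlap (Hebp1, Hfe and Atp7a 102854_s_at, of 32.3% in all), and in KO lenses 5 did not (the same 3, Ftl1 and Cp, of 31.9% in all). Since the genes were chosen for this contrast, nothing is read from these counts.

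**Figure D3:**
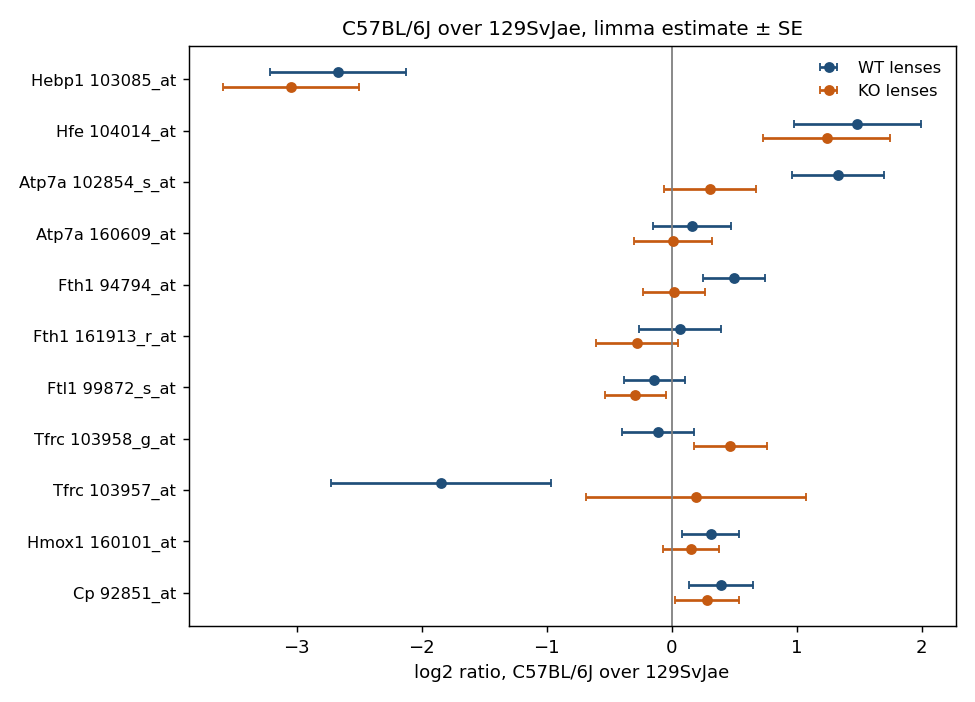
Log2 ratio of C57BL/6J over 129SvJae for the 11 tested probe sets (points, limma estimate; bars, SE), in WT and in KO lenses. Hebp1 lies far to the left in both genotypes (-2.67 and -3.04), Hfe to the right (1.48 and 1.24), and Atp7a 102854_s_at to the right in WT lenses (1.33).

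Loss of α3Cx46 was the comparison in which these genes could be tested, because the KO effect averaged over strains shares no component with the strain differences used to choose them. This holds for the choice by strain ratio, and the list itself was made with results of these arrays known. None of the 11 probe sets passed the test. Atp7a had the smallest p of the 8 genes, with a ratio above 0 on both probe sets, and the estimates for Hebp1, Hfe, the ferritin chains, Hmox1, Tfrc and Cp had 95% intervals that span 0. Of the 11 estimates, 8 were above and 3 below 0, with a median log2 ratio of 0.07 against -0.02 over all tested probe sets.

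The log2 ratio of KO over WT for Atp7a was 0.72 on 102854_s_at (SE 0.26, 1.65-fold, 95% interval 0.16 to 1.28) and 0.68 on 160609_at (SE 0.22, 1.60-fold, 95% interval 0.20 to 1.16). The unadjusted p from limma was 0.0155 and 0.00868, and the Benjamini-Hochberg adjusted p was 0.998 for both, which is not past the threshold of 0.05. On 160609_at all 4 KO arrays were above all 4 WT arrays, as on 0.972% of all tested probe sets. Arrays of the 2 genotypes did not overlap, in either direction, on 1 of 11 member probe sets over both strains (2.19% of all), on 4 within 129SvJae (29.8% of all) and on 3 within C57BL/6J (27.7% of all). On 102854_s_at the KO arrays were above the WT arrays within each strain but not across strains, since 129SvJae KO (317 and 276) overlapped C57BL/6J WT (303 and 331). Both probe sets belong to 1 gene and were read on the same arrays, and they are not independent evidence.

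Within the strains, the Atp7a KO effect in 129SvJae lenses was 1.23 on 102854_s_at (SE 0.37, unadjusted limma p 0.00500) and 0.76 on 160609_at (SE 0.31, unadjusted limma p 0.0309), with an adjusted p of 1 for both. In C57BL/6J lenses it was 0.21 (SE 0.37) and 0.61 (SE 0.31), also with an adjusted limma p of 1. The KO effect in 129SvJae lenses uses the same 129SvJae WT arrays as the strain difference in WT lenses, for which Atp7a was listed, so these values, and the interaction with strain, are not independent of that choice. Without 129SvJae WT replicate 1 the KO effects in 129SvJae lenses were 0.94 (unadjusted limma p 0.039) and 0.59 (unadjusted limma p 0.137). Taken within replicate 1, whose 4 arrays were scanned in 1 session, the KO ratios were 1.62 and 0.81 in 129SvJae and 0.17 and 0.45 in C57BL/6J for 102854_s_at and 160609_at. Within replicate 2 they were 0.84 and 0.70 in 129SvJae and 0.25 and 0.77 in C57BL/6J, where 129SvJae WT was scanned apart from the rest. All 8 ratios were above 0, but they come from 2 probe sets of 1 gene on the same arrays. The share of all tested probe sets with such ratios was not computed, so nothing is read from this count. Without 129SvJae WT replicate 1, the KO effect averaged over strains was 0.58 and 0.60. The strain by genotype interaction for Atp7a was -1.03 on 102854_s_at (SE 0.52, unadjusted limma p 0.0692) and -0.15 on 160609_at (SE 0.44, unadjusted limma p 0.741), so a difference in KO effect between the strains was not detected. Without 129SvJae WT replicate 1 the interaction was -0.74 and 0.02.

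Other values of the same arrays stand beside the Atp7a result. The summed lens fiber marker signal was 209100 to 318800 in WT and 166900 to 242200 in KO arrays, and lens epithelium markers summed to 2197 to 3450 in WT and 2456 to 2696 in KO arrays. Xist, the transcript of the inactive X chromosome, read 536 and 259 on 129SvJae WT and 161 and 290 on 129SvJae KO arrays. On C57BL/6J arrays, which like the others held pools of both sexes, it read 142 and 114 in WT and 276 and 304 in KO. Its log2 KO ratio was -0.78 in 129SvJae (SE 0.45) and 1.19 in C57BL/6J lenses (SE 0.45). The part of these markers and of Xist in the Atp7a signals was not tested.

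Hebp1 had a KO log2 ratio of 0.39 in 129SvJae (SE 0.54, 1.31-fold) and of 0.01 in C57BL/6J lenses (SE 0.54), with an adjusted limma p of 1 for both. Both 129SvJae KO arrays lay above both 129SvJae WT arrays, although the interval of -0.79 to 1.56 spans 0, and in C57BL/6J every signal was below 50 so that a change there was not detectable. Hfe had a KO log2 ratio of 0.09 in 129SvJae (SE 0.51) and -0.16 in C57BL/6J lenses (SE 0.51). Averaged over strains it was -0.04 (95% interval -0.81 to 0.74), and it was 0.06 with arrays centred on the median.

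For Tfrc, the brighter probe set (103958_g_at) read below both 129SvJae WT arrays on both 129SvJae KO arrays, with a log2 ratio of -0.64 (SE 0.29, unadjusted limma p 0.0453, adjusted p 1), and had a ratio of -0.06 (SE 0.29) in C57BL/6J lenses. The dimmer set (103957_at) had ratios of -0.45 (SE 0.88) in 129SvJae and 1.59 (SE 0.88, unadjusted limma p 0.0948) in C57BL/6J lenses, and in the latter the C57BL/6J WT replicate 1 signal was 14.1. The latter ratio was 0.37 without that array and 2.81 without C57BL/6J WT replicate 2. The 3′ control set of Tfrc, when kept in the fit, had a KO ratio of 0.05 (SE 0.35) averaged over strains. The 3 probe sets of 1 transcript thus gave no shared direction.

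The ferritin, heme oxygenase and ceruloplasmin signals had KO ratios near 0. Averaged over strains the log2 ratio was 0.15 for Fth1 on 94794_at (SE 0.18, 95% interval -0.23 to 0.53), 0.07 for Fth1 on 161913_r_at (SE 0.23, 95% interval -0.43 to 0.57) and 0.04 for Ftl1 (SE 0.17, 95% interval -0.33 to 0.41). It was 0.00 for Hmox1 (SE 0.16, 95% interval -0.34 to 0.35) and -0.23 for Cp (SE 0.18, 95% interval -0.62 to 0.16). Without 129SvJae WT replicate 1 the ratio was -0.06 for Fth1 (94794_at), -0.17 for Ftl1 and -0.15 for Hmox1. With 2 arrays per group, changes of the sizes inside these intervals remain possible.

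**Figure D4:**
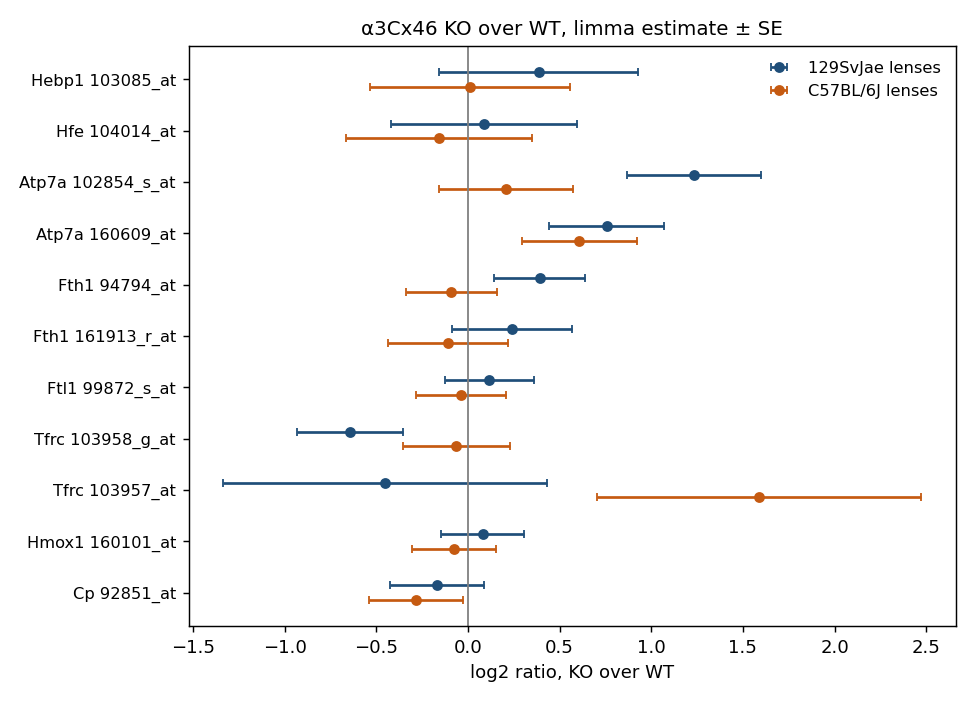
Log2 ratio of α3Cx46 KO over WT for the 11 tested probe sets (points, limma estimate; bars, SE), in 129SvJae and in C57BL/6J lenses. The Atp7a estimates lie to the right of 0 in both strains on both probe sets (1.23 and 0.21, 0.76 and 0.61), and the widest bars belong to Tfrc 103957_at.

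The counts read against their background were as follows. For the KO effect averaged over strains, 0 of 11 member probe sets were called by limma at an adjusted p under 0.05 (0.0198% of all tested probe sets were) and 2 had an unadjusted p under 0.05, both of Atp7a (3.05% of all). In 129SvJae lenses 0 were called (0% of all) and 3 had an unadjusted p under 0.05, both Atp7a sets higher and Tfrc 103958_g_at lower (3.12% of all). Since Atp7a was chosen through the same 129SvJae WT arrays, nothing is read from that count. In C57BL/6J lenses 0 were called (0.00992% of all) and 0 had an unadjusted p under 0.05 (2.31% of all). For the interaction 0 were called (0% of all) and 0 had an unadjusted p under 0.05 (2.11% of all). The methods' t-test gave 0 calls after Benjamini-Hochberg adjustment in each of the 3 KO comparisons. The study's methods name no such adjustment and ask for a 1.8-fold change and a p of at most 0.01. Here those cutoffs were applied to the unadjusted limma p, not to the p of the methods' own test. So applied, they were met by 1 member probe set in 129SvJae lenses (30 probe sets in all). They were met by 0 averaged over strains (25 in all) and by 0 in C57BL/6J lenses (37 in all). In 129SvJae lenses Atp7a 102854_s_at stood at 2.35-fold with an unadjusted limma p of 0.00500. Its p from the methods' own test was above 0.01, so with that test it did not meet the cutoffs. Nothing is read from the count in 129SvJae lenses either.

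The rest of the pathway was taken from 5 lists of 82 genes, of which 55 genes with 67 probe sets were tested. None of the 67 was called by limma in any of the 7 comparisons, nor by the methods' t-test in the 6 in which it was run. Over all tested probe sets, limma called 0.367% for the strain difference averaged over genotypes, 0.0695% for that in WT and 0.0893% for that in KO lenses. At an unadjusted limma p under 0.05 there were 6 of the 67 for the strain difference in WT lenses (6.47% of all tested probe sets) and 2 in KO lenses (Alad and Slc31a1, against 3.73% of all). For the KO effect there were 0 in 129SvJae lenses (3.12% of all) and 4 in C57BL/6J lenses (Meltf, Nfs1, Nfu1 and Urod, against 2.31% of all), and for the interaction 2 (Sod3 and Tyr, against 2.11% of all). For the KO effect averaged over strains 36 estimates were above and 31 below 0, with a median log2 ratio of 0.01 against -0.02 over all tested probe sets, and 1 probe set had a ratio above 0 and 1 below 0 at an unadjusted p under 0.05 (3.05% of all in either direction). The first was Urod, an enzyme of heme synthesis (161328_i_at, log2 ratio 1.24, SE 0.40, unadjusted limma p 0.00799, adjusted p 0.998), whose other probe set gave 0.18. The second was Meltf, melanotransferrin, an iron-binding protein of the cell surface (97970_at, log2 ratio -1.68, SE 0.56, unadjusted limma p 0.0104, adjusted p 0.998), with signals of 68.5 to 308 in WT and 21.7 to 132 in KO arrays.

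Among 20 probe sets of iron uptake, export and sensing, 12 KO estimates were above and 8 below 0. The brightest were those of the iron chaperones Pcbp1 (mean signal 3039, log2 KO ratio 0.27, SE 0.17) and Pcbp2 (mean signal 2076, log2 KO ratio 0.01, SE 0.16). Ncoa4, the receptor that delivers ferritin for breakdown, had the next smallest p after Meltf at a mean signal of 36.4 (161381_r_at, log2 KO ratio -1.24, SE 0.75). Its brighter probe set (97843_at, mean signal 552) had a log2 KO ratio of -0.16 (SE 0.22). Of 7 probe sets for iron-sulfur clusters and mitochondrial iron, 3 were above and 4 below 0, with the scaffold genes Nfu1 at -0.41 (SE 0.24) and Isca1 at 0.00 (SE 0.22), and the sulfur donor Nfs1 at 0.36 (SE 0.22). None of these estimates passed the test.

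Of 7 heme synthesis probe sets, 5 KO estimates were above and 2 below 0, with Alad at 0.08 (SE 0.26), Uros at 0.33 (SE 0.38) and Cpox, the coproporphyrinogen oxidase, at -1.69 (SE 0.91). The Cpox signals (98505_i_at) ran from 7.8 to 196 over the arrays. Of 12 probe sets of heme carriage and breakdown 6 were above and 6 below 0, among them Pgrmc1 at 0.06 (SE 0.23), the heme transporter Slc48a1 at -0.35 (SE 0.48), the exporter Abcg2 at -0.41 (SE 0.43) and Fabp1 at -1.28 (SE 0.83). The mean signal of this Fabp1 set (162342_at) was only 40.6. The other Fabp1 set (94075_at, mean signal 22.4) had a log2 KO ratio of -0.85 (SE 1.19). Of 21 probe sets of copper handling and metallothioneins 10 were above and 11 below 0. The copper importer Slc31a1 (101877_at) stood at 0.15 (SE 0.17), the copper and zinc superoxide dismutase Sod1 at 0.03 (SE 0.14), the copper chaperone Atox1, which hands copper to Atp7a, at -0.18 (SE 0.14), and the metal-sensing factor Mtf1 at 0.59 (SE 0.42). None of the probe sets of these 3 lists passed the test.

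In the strain difference averaged over genotypes, 25 of the 67 pathway estimates were above and 42 below 0, with a median log2 ratio of -0.13 against 0.01 over all tested probe sets. Of these, 4 were lower in C57BL/6J at an unadjusted p under 0.05 (6.97% of all tested probe sets in either direction had such a p). These were Alad, an enzyme of heme synthesis (-0.80, SE 0.26), Urod (161328_i_at, -1.09, SE 0.40), Slc31a1 (101877_at, -0.59, SE 0.17) and Pam, a copper-dependent enzyme of peptide amidation (-1.15, SE 0.36). The adjusted limma p was 0.380, 0.492, 0.291 and 0.370 in that order. The other probe set of Urod (94275_at) had a ratio of -0.13 (SE 0.31). With scan session as a block, Slc31a1 (101877_at) passed the threshold at -0.75 (SE 0.11, adjusted limma p 0.0236), and its other probe set (103845_at) had a ratio of -0.33 (SE 0.16) in the fit without the block.

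**Figure D5:**
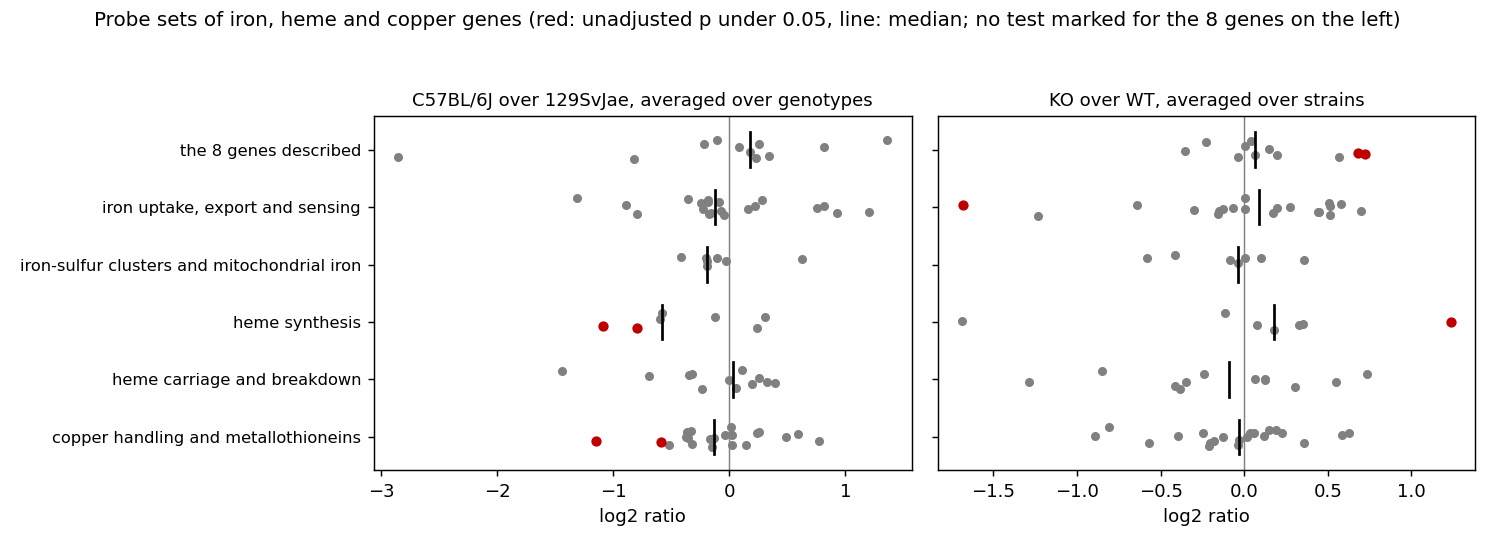
Log2 ratios of every tested probe set of the 8 genes and of the 5 lists of other iron, heme and copper genes, for C57BL/6J over 129SvJae (left) and KO over WT (right); each point is 1 probe set, the black line is the median of its list, and red marks an unadjusted limma p under 0.05, which is not marked for the 8 genes on the left. Hebp1 (-2.85) is the lowest point on the left, and in the KO panel both Atp7a sets, Urod and Meltf are the red points.

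The genes whose signals ran most like those of the 3 members chosen for their strain ratio were ranked by Pearson correlation of log2 signals over the 8 arrays, as a description. For Hebp1 these were 1810058I24Rik (r = 0.977), Plg, the gene of plasminogen (r = 0.976), and Gnb1, a G protein β subunit (r = 0.974). Their mean signals were 1342, 63.4 and 680 in 129SvJae and 584, 8.49 and 350 in C57BL/6J lenses. For Hfe they were Tubgcp4 (r = 0.968), Trmt1 (r = 0.967) and Tsc2 (r = 0.964), which had means of 130, 99.5 and 656 in 129SvJae and 168, 204 and 1251 in C57BL/6J lenses. For Atp7a (102854_s_at) they were Rcn2, Mfap2 and Slu7 (r = 0.969, 0.966 and 0.955), with means of 277, 1225 and 155 in WT and 359, 1592 and 207 in KO lenses. Their means were 267, 1256 and 152 in 129SvJae and 369, 1561 and 211 in C57BL/6J lenses. The averaged log2 KO ratios of Rcn2, Mfap2 and Slu7 were 0.46 (SE 0.225), 0.43 (SE 0.17) and 0.52 (SE 0.32). Their averaged log2 strain ratios were 0.53 (SE 0.225), 0.365 (SE 0.17) and 0.57 (SE 0.32). The 8 points share arrays, scaling and group means, and the ranking searched all tested probe sets with 1 gene symbol. A pattern shared with the member was thus fixed by the choice, and nothing is read from it.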

How the data were processed

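RNA from pools of 10-day-old mouse lenses was hybridized to 8 MG-U74Av2 arrays, 2 for each of 4 groups. The deposited values are signal intensities on a linear scale, which the authors made with Affymetrix Microarray Suite 5 (MAS5 in the submitters' processing notes) and scaled to a mean intensity of 250. Here arrays were set to a common trimmed mean of 250 (2% cut from each end), 1 value at or below 0 was set to 1, and log2 was taken. The number of arrays limits the precision.

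The 66 control probe sets were left out, and 10078 of the other 12422 had a mean above 50 in at least 1 group. Of the 12422, 10833 had 1 gene symbol in the platform annotation, 396 several and 1193 none. The 4 group means were fitted with limma 3.58.1 in R 4.3.3 (eBayes with a variance trend), and p-values were adjusted by Benjamini-Hochberg over all 10078, with calls at an adjusted p under 0.05. The script was checked on simulated data.

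The members and lists were chosen with earlier results of these data known. All member probe sets are named. Of other pathway genes, those called in any comparison are named, with the 2 smallest p-values for the averaged KO effect and the 2 largest mean signals in each list. Pathway genes named for an unadjusted p under 0.05 were chosen after their values were seen. For likeness, the 3 highest correlations are named.

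Replicate numbers come from the labels. Deviations from the group means of same-numbered arrays correlated at 0.129 to 0.206 in all 6 pairs of groups. The main fit did not pair the arrays by this number, and a block for it was fitted only as an alternative. Alternatives were other scalings, low-signal settings, level filters, priors, blocks for replicate number and for scan session from the run records, the methods' t-test and leaving out each array. A fit with the Tfrc control probe sets kept was added after seeing the data.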

Additional observations from a re-analysis of the deposited data

How the results depend on the processing

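Hebp1, Hfe and Atp7a were chosen by their strain ratio, so counts of member probe sets past the threshold for a strain difference are a description from which nothing is read. Over all tested probe sets, the main fit called 0.367% averaged over genotypes and 0.0893% in KO lenses. Such shares are not given for the alternative settings, so the counts there have no background. A fit with 1 array left out also keeps only 1 array in that group. Averaged over genotypes the count was 1, against 0 with no variance trend and 0 to 2 with 1 array left out (0 without 129SvJae KO replicate 2, 2 without 129SvJae WT replicate 1). In KO lenses it was 0, against 1 with only the groups compared and 0 to 1 with 1 array left out (1 without C57BL/6J WT replicate 1 or 2). For the pathway lists, the count of strain differences averaged over genotypes went from 0 to 1 with scan session as a block. The causes were not tested. Hebp1 had an averaged strain ratio of -2.45 with an offset of 16.

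With the replicate block, the KO effect of Atp7a kept an adjusted limma p of 0.919 on both probe sets (unadjusted 0.0115 on 102854_s_at and 0.00382 on 160609_at), and the block changed no call. Leaving out 1 array gave Atp7a KO effects averaged over strains of 0.58 to 0.86 (unadjusted p 0.00751 to 0.0562) and 0.56 to 0.80 (unadjusted p 0.00789 to 0.0514).

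Some strain ratios changed sign with an array left out, such as those of Ftl1 in WT lenses (-0.55 to 0.28) and Atp7a (160609_at) in KO lenses (-0.23 to 0.25). Among KO effects and interactions, the direction turned for the following estimates. The averaged KO effect of Hfe was 0.0637 with arrays centred on the median, a setting that moved the median KO effect of all probe sets in 129SvJae lenses from -0.05 to 0.09. With an array left out, averaged KO effects ran from -0.47 to 0.40 for Hfe, -0.0609 to 0.361 for Fth1 (94794_at), -0.23 to 0.36 for Fth1 (161913_r_at), -0.17 to 0.25 for Ftl1, -0.15 to 0.15 for Hmox1 and -0.0418 to 1.18 for Tfrc (103957_at). The KO effect of Hebp1 in C57BL/6J lenses ran from -0.27 to 0.30, those of Tfrc from -1.38 to 0.48 (103957_at, 129SvJae) and from -0.29 to 0.16 (103958_g_at, C57BL/6J), and the interaction of Atp7a (160609_at) from -0.39 to 0.0924. With signals under 50 set to 50, Hebp1 gave no KO value in C57BL/6J lenses, since all 4 signals were at the floor.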
